A study of Mus musculus with 6 samples.

Results

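The transcripts of 9 genes of mitochondrial clearance were followed in mouse gastrocnemius, a mixed hindlimb muscle: Pink1, Fbxo7, Usp30, Sqstm1, Optn, Bnip3, Bnip3l, Fundc1 and Pgam5. They were taken by gene symbol from a count table that gave values for 17034 genes, and each symbol matched 1 row. The 3 TRa_mKO mice were homozygous for a floxed Thra allele (Thra fl/fl), the gene of thyroid hormone receptor alpha, and also carried Cre recombinase under Myf5, which is active in muscle precursors from the embryo on. The 3 WT mice were littermates with the same floxed alleles and no Cre, so the floxed allele was shared by both groups and Cre was not. All were males killed at 8 weeks of age, without drug or diet treatment. Both genotypes were sequenced in batch 1 of the labels, as stranded libraries of polyadenylated RNA.

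Mitophagy is the removal of worn mitochondria by autophagy. In its ubiquitin-dependent branch the kinase PINK1 is imported and destroyed in healthy mitochondria, but builds up on the outer membrane of depolarised ones, where it phosphorylates ubiquitin and so promotes ubiquitination of the membrane; adaptor proteins then link the ubiquitin coat to LC3 on the growing autophagosome. In the receptor branch, proteins anchored in the outer membrane, among them BNIP3, NIX (the product of Bnip3l) and FUNDC1, bind LC3 directly. In muscle, fasting, denervation and low oxygen are known to raise BNIP3. The title of the series concerns muscle loss, mitophagy and the placing of Pink1 mRNA at mitochondria, and the comparison of the genotypes asks here whether the amounts of these transcripts differed.

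Library totals were 12390527 to 14488500 counts in TRa_mKO muscle and 12979945 to 14266742 counts in WT muscle. Levels are given in CPM, read counts scaled per library and corrected for composition by TMM. Thra itself measured 129, 118 and 101 CPM in TRa_mKO libraries and 78.8, 92.8 and 96.9 CPM in WT libraries (adjusted p = 0.117 by the quasi-likelihood test of edgeR). A count over the whole gene does not show whether the floxed exons were lost, so it checks neither the deletion nor the labels. The 8 myofibre markers summed to 117731 to 133996 CPM in TRa_mKO and 93438 to 126162 CPM in WT, and all 8 were detected. Markers of other cells were present at lower sums: 6 endothelial genes at 726 to 1008 CPM in TRa_mKO and 969 to 1186 CPM in WT, 8 macrophage genes at 56.8 to 89.0 CPM in TRa_mKO and 59.6 to 88.8 CPM in WT, and 5 Schwann cell genes at 471 to 647 CPM in TRa_mKO and 296 to 1229 CPM in WT. Haemoglobin transcripts were highest in TRa_mKO replicate 3 (1599 CPM) and WT replicate 1 (1742 CPM), against 453 to 907 CPM in the remaining libraries. The 6 slow-fibre genes measured showed the widest parting, at 3675 to 5427 CPM in TRa_mKO and 789 to 1962 CPM in WT. In whole muscle, fewer cells of a type and less RNA per cell cannot be told apart.

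No mitophagy member was called changed between TRa_mKO and WT muscle. Of the 9 members, all of which passed the filter on low counts, 0 reached a Benjamini-Hochberg adjusted p below 0.05 in edgeR, where 4.17% of all 13118 genes tested did. The smallest adjusted p was 0.0635 and the largest 0.966. Without adjustment, 3 members had p under 0.05 (17.9% of all genes did): Bnip3 and Pink1 with the higher values in TRa_mKO, and Pgam5 with the higher values in WT. The same 3 were the members whose libraries did not overlap between the genotypes, 3 of 9 against 23.2% of all genes (2 with TRa_mKO higher against 13.2%, 1 with TRa_mKO lower against 10.1%). Of the other tools, limma-voom called 0 members and 3.93% of all genes. DESeq2 called 5.82% of all genes, 3.52% as higher in TRa_mKO, and 2 members, both higher, Bnip3 (adjusted p = 0.00308) and Pink1 (adjusted p = 0.0498). The median log2 fold change of TRa_mKO over WT was -0.02 over the members and 0.00 over all genes tested.

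**Figure D1:**
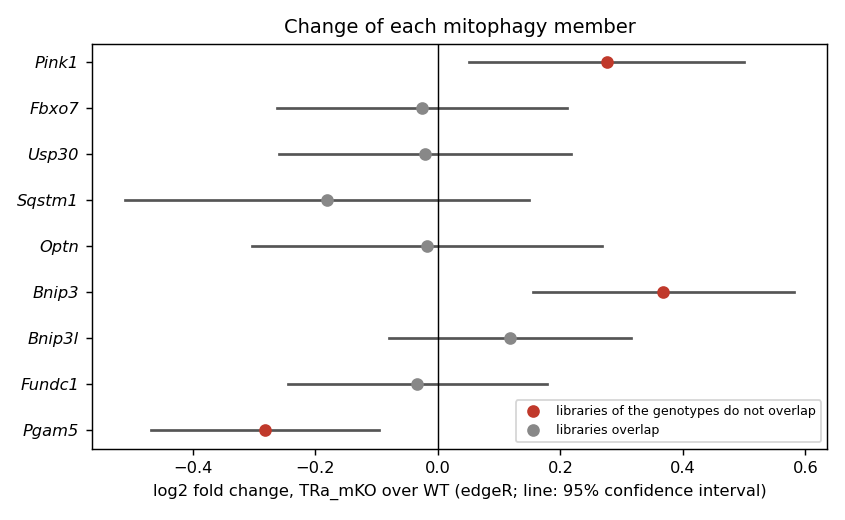
Log2 fold change of each member, TRa_mKO over WT, with its 95% confidence interval as a line, not adjusted for the number of genes tested. The intervals of Pink1, Bnip3 and Pgam5 leave out 0, those of the other 6 members include it, and no member reached an adjusted p below 0.05.

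The members fell into separate ranges of abundance. Levels of different genes are compared here as CPM per kilobase of the longest coding transcript, on which scale 12760 genes could be ranked. Pink1 stood at rank 209, with 299 ± 16.8 CPM per kb in TRa_mKO and 247 ± 3.39 in WT (mean ± SD, n = 3 each). Sqstm1, which encodes the adaptor p62, stood at rank 223, with 241 ± 37.4 CPM per kb in TRa_mKO and 273 ± 40.3 in WT. Bnip3 followed at rank 252, with 269 ± 10.6 CPM per kb in TRa_mKO and 208 ± 7.12 in WT. These 3 thus lay among the most abundant transcripts of the muscle, and the ranges of Pink1 and Sqstm1 met in WT libraries. A middle group held Bnip3l (42.6 ± 2.72 CPM per kb in TRa_mKO, 39.2 ± 1.11 in WT), Optn (38.9 ± 6.06 in TRa_mKO, 39.4 ± 4.55 in WT), Fundc1 (24.6 ± 1.77 in TRa_mKO, 25.2 ± 2.31 in WT) and Pgam5 (15.8 ± 0.950 in TRa_mKO, 19.2 ± 0.875 in WT). Bnip3l and Optn did not differ beyond their spread. Fbxo7 (3.52 ± 0.372 CPM per kb in TRa_mKO, 3.57 ± 0.167 in WT) and Usp30 (2.95 ± 0.0187 in TRa_mKO, 2.99 ± 0.222 in WT) were the scarcest, with 66.0% and 69.9% of ranked genes above them. Transcript length was taken from the annotation, not from these muscles, so a shorter isoform in use would raise a gene's true level per length.

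**Figure D2:**
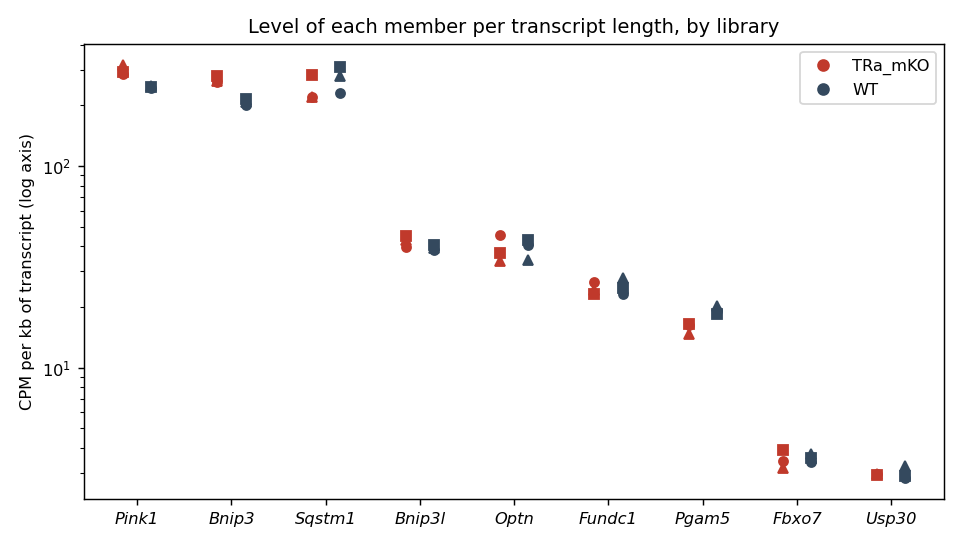
Level of each member in CPM per kilobase of transcript on a log axis, one point per library (circle, square and triangle for replicates 1, 2 and 3), TRa_mKO left of WT. Pink1, Bnip3 and Sqstm1 lie above 200 CPM per kb, Bnip3l, Optn, Fundc1 and Pgam5 between 14.7 and 45.6, and Fbxo7 and Usp30 below 4.

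Pink1 (gene ID 68943), the kinase that marks damaged mitochondria, measured 681, 695 and 756 CPM in TRa_mKO libraries, against 579, 586 and 595 CPM in WT libraries. Every TRa_mKO library lay above every WT library, and the WT libraries were close together (coefficient of variation 1.37%, against 5.61% in TRa_mKO). The difference was 1.21-fold, or 0.28 on the log2 scale (SE 0.10, 95% confidence interval 0.05 to 0.50), and missed the threshold of the edgeR test (adjusted p = 0.179). The interval spans 1.04-fold to 1.41-fold on the linear scale, all on the side of more Pink1 mRNA in TRa_mKO. It holds for 1 gene taken alone and is not adjusted for the number of genes tested. With the library richest in haemoglobin left out of each genotype, the log2 fold change was 0.22 (adjusted p = 0.501). That fit rested on fewer libraries and called 267 of all genes, against 547 with all libraries. The part of haemoglobin content in the Pink1 values was not tested.

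Fbxo7 and Usp30, which act with and against PINK1, differed between the genotypes by less than the spread between libraries. Fbxo7 (gene ID 69754), an F-box protein that takes part in PINK1-dependent mitophagy, measured 18.5, 21.1 and 17.2 CPM in TRa_mKO and 18.4, 19.1 and 20.2 CPM in WT. Its log2 fold change was -0.03 (SE 0.11, adjusted p = 0.937), its counts were partly fractional, and its span overlaps Syn3, which reached at most 1.66 CPM. Usp30 (gene ID 100756), the deubiquitinase that strips ubiquitin from the outer membrane and so counters mitophagy, measured 13.6, 13.5 and 13.6 CPM in TRa_mKO and 13.0, 13.3 and 14.9 CPM in WT. The TRa_mKO libraries of Usp30 lay inside the WT range, and the log2 fold change was -0.02 (interval -0.26 to 0.22, adjusted p = 0.953). Per length, Pink1 stood over Usp30 101 ± 5.44 times in TRa_mKO and 83.0 ± 4.87 times in WT (SD, n = 3 each).

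Among the members, the ubiquitin-binding adaptors varied most from mouse to mouse. Sqstm1 (gene ID 18412) measured 586, 760 and 587 CPM in TRa_mKO and 615, 828 and 747 CPM in WT. The genotypes overlapped, since TRa_mKO replicate 2 exceeded WT replicates 1 and 3. The coefficient of variation was 15.5% in TRa_mKO and 14.8% in WT, and the difference of -0.18 on the log2 scale (SE 0.15, interval -0.51 to 0.15) was not called (adjusted p = 0.576). The difference ranged from -0.32 without TRa_mKO replicate 2 to -0.081 without WT replicate 2. Optn (gene ID 71648), the optineurin adaptor that is phosphorylated by TBK1, measured 119, 96.9 and 88.6 CPM in TRa_mKO and 106, 113 and 89.7 CPM in WT. Its extremes both came from TRa_mKO, replicate 1 at the top and replicate 3 at the bottom, and the log2 fold change was -0.02 (SE 0.13, adjusted p = 0.966). The ratio of Sqstm1 to Optn per length ran from 4.81 to 7.66 in TRa_mKO and from 5.67 to 8.14 in WT.

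**Figure D3:**
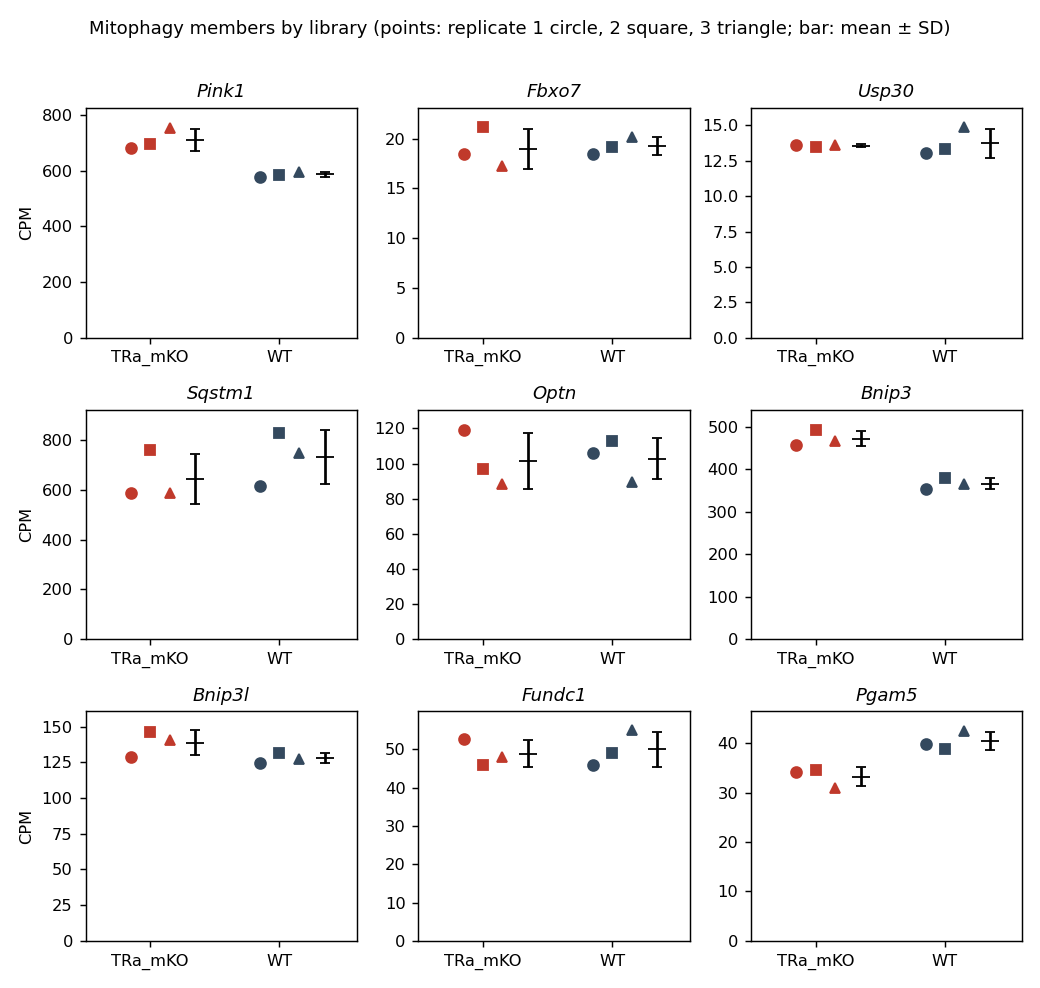
CPM of each member in every library (circle, square and triangle for replicates 1, 2 and 3), TRa_mKO left of WT, with mean ± SD as a bar and each axis starting at 0. The libraries part for Pink1, Bnip3 and Pgam5 and overlap for the other 6 members.

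Among the outer-membrane receptors, Bnip3 had the largest difference of all members. Bnip3 (gene ID 12176), a BH3-like protein with an LC3-binding motif, measured 457, 493 and 466 CPM in TRa_mKO and 354, 379 and 365 CPM in WT. All 3 TRa_mKO libraries were above all 3 WT libraries, and the spread within a genotype was small (coefficient of variation 3.93% in TRa_mKO and 3.42% in WT). The difference was 1.29-fold, or 0.37 on the log2 scale (SE 0.10, interval 0.15 to 0.58), and fell short of the edgeR threshold (adjusted p = 0.0635). Among the 9029 genes with a mean of at least 10 CPM, 419 were called, and 10 of these had a smaller change than Bnip3; the smallest called change was 1.26-fold. Without the haemoglobin-rich libraries, in a fit on fewer libraries, the log2 fold change of Bnip3 was 0.35 (adjusted p = 0.241).

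Bnip3l (gene ID 12177), whose product NIX is the closest relative of BNIP3 and clears mitochondria from maturing red cells, measured 129, 147 and 141 CPM in TRa_mKO and 124, 132 and 128 CPM in WT. The genotypes overlapped at TRa_mKO replicate 1 and WT replicate 2, and the difference of 0.12 on the log2 scale (SE 0.09, interval -0.08 to 0.31) was not called (adjusted p = 0.539); its counts were fractional in part. Of the haemoglobin-rich libraries, TRa_mKO replicate 3 had the second highest Bnip3l value of all 6 and WT replicate 1 the lowest; the part of red cells in these values was not tested. Per length, Bnip3 exceeded Bnip3l 6.57-, 6.24- and 6.16-fold in TRa_mKO, against 5.27-, 5.34- and 5.31-fold in WT. This ratio, computed after the separate values had been seen and not tested, did not overlap between the genotypes.

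Fundc1 (gene ID 72018), a receptor of low-oxygen mitophagy, measured 52.6, 45.8 and 48.1 CPM in TRa_mKO and 45.9, 49.1 and 54.9 CPM in WT. Its groups overlapped over almost the whole range, and the log2 fold change was -0.03 (interval -0.24 to 0.18, adjusted p = 0.902). Pgam5 (gene ID 72542), a mitochondrial phosphatase that removes an inhibitory phosphate from FUNDC1, measured 34.2, 34.5 and 30.9 CPM in TRa_mKO and 39.9, 38.8 and 42.4 CPM in WT. Each TRa_mKO library lay below each WT library, the reverse of Pink1 and Bnip3. The log2 fold change of Pgam5 was -0.28 (SE 0.08, interval -0.47 to -0.10), and WT held 1.22-fold more, but the test was not passed (adjusted p = 0.1004).

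Marker genes of fibre type and of cell types were compared between the genotypes beside the members. The sum of the slow-fibre genes did not overlap between genotypes, and of its 6 genes 2 were called higher in TRa_mKO. WT replicate 1 had the highest slow-fibre sum of WT (1962 CPM against 807 and 789 CPM) and the lowest Pink1 and Bnip3 of WT. The WT values of these genes lay close together (coefficient of variation 1.37% for Pink1 and 3.42% for Bnip3), so their order says little. Within TRa_mKO, Pink1 (681, 695 and 756 CPM) followed the order of the slow-fibre sum (3675, 3905 and 5427 CPM in replicates 1, 2 and 3). The endothelial, macrophage, fibroblast, Schwann cell, adipocyte and erythroid sums rose in that order too, so it was not particular to slow-fibre genes. The myofibre sum and Bnip3 (457, 493 and 466 CPM) did not follow it. The 6 endothelial genes all had negative log2 fold changes (median -0.32, 0 called), and the 8 myofibre genes a median of 0.21 (0 called). The part of fibre type or of vessel content in the values of the members was not tested.

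The stretches just upstream of Pink1 and Bnip3 are shown because these 2 members had the higher values in every TRa_mKO library. They are the 250 bases before the RefSeq start site on GRCm38.p6, 5′ to 3′ on the gene's strand; capitals mark matches to any of 4 short motifs searched on both strands, and the letters are from RefSeq, not from these mice. The Pink1 stretch lies at chr4:138326297-138326546 and the Bnip3 stretch at chr7:138909507-138909756, both on the minus strand.
Pink1: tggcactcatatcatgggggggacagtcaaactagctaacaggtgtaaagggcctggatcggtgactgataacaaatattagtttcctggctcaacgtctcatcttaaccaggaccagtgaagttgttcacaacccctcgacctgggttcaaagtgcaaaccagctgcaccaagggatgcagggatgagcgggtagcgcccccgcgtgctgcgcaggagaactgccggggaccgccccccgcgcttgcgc
Bnip3: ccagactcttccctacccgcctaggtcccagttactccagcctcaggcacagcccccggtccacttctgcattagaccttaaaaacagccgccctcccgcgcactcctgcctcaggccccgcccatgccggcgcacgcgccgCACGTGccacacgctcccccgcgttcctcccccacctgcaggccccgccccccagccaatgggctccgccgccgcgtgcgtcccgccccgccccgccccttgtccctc
The motifs were AGGTCA, the half-site bound by thyroid hormone receptors and other nuclear receptors, ACGTG, the core bound by hypoxia-inducible factors, GTAAACA, bound by FoxO factors, and TGACNNNGC, the antioxidant response core. The Bnip3 stretch held ACGTG on both strands of one palindrome, CACGTG, that ends 103 bases before the start site. Which factors bind this palindrome was not tested. The Pink1 stretch held 0 of the 4 motifs. Promoter entries were matched for 8 start sites of 7 of the 9 members, without Bnip3l and Pgam5; of these 8, 2 held ACGTG (Bnip3 and 1 start of Fbxo7), where 16.6% of all 32851 promoters did. The half-site AGGTCA was found in 0 of the 8 and in 14.0% of all promoters, GTAAACA in 0 and 3.17%, and TGACNNNGC in 0 and 10.2%. A match describes letters in the reference, and its absence covers this window only. The Bnip3 stretch was richer in G and C (72.4%) than the Pink1 stretch (57.2%), against a median of 52.4% over all promoters.

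Around the members, 1 of the genes reported was called, Nlrx1, which was higher in TRa_mKO. Over 8 lists of other mitophagy genes, 78 genes were counted, of which 1 was called higher and 0 lower, where 2.52% of all genes were called higher and 1.65% lower. Their median log2 fold change was 0.03, against 0.00 over all genes. Of the 78, 10 had an unadjusted p under 0.05, where 17.9% of all genes did. DESeq2 called 1 higher and 1 lower (3.52% and 2.29% of all genes), limma-voom 1 higher and 0 lower (2.39% and 1.53%).

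Nlrx1 (gene ID 270151), an innate immune protein of mitochondria that can act as an LC3-binding receptor, measured 29.6, 31.5 and 28.0 CPM in TRa_mKO and 20.3, 21.2 and 20.7 CPM in WT. The genotypes did not overlap, and Nlrx1 rose 1.43-fold in TRa_mKO (29.7 ± 1.73 against 20.7 ± 0.469 CPM, mean ± SD, n = 3 each; log2 fold change 0.52, SE 0.09, edgeR adjusted p = 0.0109). The call was lost without TRa_mKO replicate 2 (log2 fold change 0.46, adjusted p = 0.0657) and without the haemoglobin-rich libraries (0.54, adjusted p = 0.0547). The latter fit had 1 library fewer in each genotype, and its log2 fold change was no smaller. In its list of other receptors, 1 of 9 was called, with a median of 0.06.

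**Figure D4:**
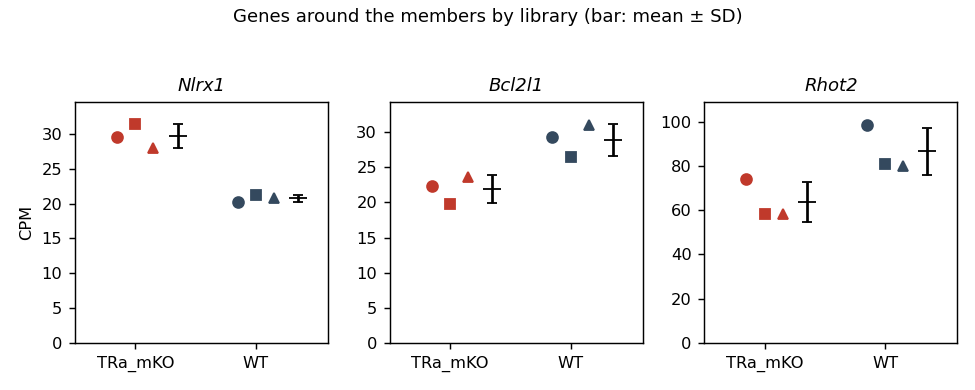
CPM of Nlrx1, Bcl2l1 and Rhot2 in every library (circle, square and triangle for replicates 1, 2 and 3), TRa_mKO left of WT, with mean ± SD as a bar and each axis starting at 0. Nlrx1 was called higher in TRa_mKO; Bcl2l1 and Rhot2 lay lower in TRa_mKO without overlap and did not pass the test.

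Beside FUNDC1, the gene nearest to the threshold was Bcl2l1 (gene ID 12048). It encodes BCL-XL, which binds PGAM5 and restrains it, and measured 22.3, 19.8 and 23.6 CPM in TRa_mKO and 29.3, 26.4 and 31.0 CPM in WT. The libraries did not overlap (log2 fold change -0.40, SE 0.10, adjusted p = 0.0615 by edgeR). Of its 16 alternative fits 1 passed, that without a filter on low counts (adjusted p = 0.0482), and the highest adjusted p was 0.216, without TRa_mKO replicate 2. Its list, with the FUNDC1 kinases Src and casein kinase 2 subunits, had 0 of 5 called and a median of 0.03, and Csnk2a1 and Csnk2a2 measured log2 fold changes of -0.10 and 0.05.

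Of the 9 ubiquitin ligases, ubiquitin-conjugating enzymes, deubiquitinases and partners at mitochondria that were counted, 0 were called and the median log2 fold change was -0.01. Huwe1, a large ubiquitin ligase, measured 178, 169 and 170 CPM in TRa_mKO and 164, 147 and 159 CPM in WT. Its libraries did not overlap, and its log2 fold change of 0.14 (SE 0.09) did not pass by edgeR (adjusted p = 0.455). The deubiquitinase Usp15 and the outer-membrane ligase Marchf5 had log2 fold changes of 0.12 and -0.08 (adjusted p = 0.628 and 0.706); Usp15 stood at 0.015 without TRa_mKO replicate 1 and Marchf5 stood at -0.030 without TRa_mKO replicate 3.

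Among 8 outer-membrane proteins that are ubiquitinated in mitophagy, 0 were called and the median was -0.07. Rhot2, a mitochondrial GTPase that ties mitochondria to microtubule motors, measured 74.0, 58.4 and 58.3 CPM in TRa_mKO and 98.7, 81.0 and 79.9 CPM in WT. Its libraries did not overlap, and its log2 fold change of -0.44 (SE 0.12) did not pass by edgeR (adjusted p = 0.0796), and it passed in 4 of its 16 alternative fits, with an adjusted p from 0.0245 without TRa_mKO replicate 1 to 0.388 without the haemoglobin-rich libraries. In that last setting the log2 fold change was -0.28. The passing fits beside the one without TRa_mKO replicate 1 were DESeq2 (0.0304), no filter (0.0451) and library sizes alone (0.0459). Mfn2, the mitofusin that PINK1 phosphorylates, had a log2 fold change of 0.15, and the porin gene Vdac2 one of -0.18 (adjusted p = 0.506 and 0.492).

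The 16 genes of PINK1 import and processing, which cover the translocases of both membranes and the proteases that cut PINK1, had 0 called and a median of 0.08. Oma1, a stress-activated inner-membrane protease, measured 36.7 ± 2.79 CPM in TRa_mKO and 30.4 ± 2.35 CPM in WT (log2 fold change 0.27, adjusted p = 0.157). Timm50 and Tomm70a, a subunit of the inner and a receptor of the outer translocase, had log2 fold changes of 0.18 and -0.19 (adjusted p = 0.283 and 0.329). For the turnover of BNIP3 and NIX, 0 of 4 genes were called. Pptc7, a mitochondrial phosphatase that helps to have both receptors degraded, measured 101, 77.1 and 85.8 CPM in TRa_mKO and 131, 105 and 101 CPM in WT (log2 fold change -0.35, adjusted p = 0.184). Its partner Fbxl4, the F-box protein of that ligase, had a log2 fold change of 0.30 in the other direction (adjusted p = 0.276), and the scaffold Cul1 one of 0.05.

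The adaptor list beside Sqstm1 and Optn held 7 genes, with 0 called and a median of 0.03. Calcoco1, Nbr1 and the kinase gene Tbk1 had log2 fold changes of 0.18, 0.12 and -0.11 (adjusted p = 0.330, 0.506 and 0.607). Of 20 genes of the ATG8 family and of autophagosome formation, 0 were called, and the median was 0.04. Tbc1d17, a Rab GTPase-activating protein at mitochondria, measured 54.6 ± 9.46 CPM in TRa_mKO and 41.5 ± 2.41 CPM in WT (log2 fold change 0.39, adjusted p = 0.114). Without TRa_mKO replicate 1 its log2 fold change was 0.52 (adjusted p = 0.0204), the 1 fit of 16 that passed, and without TRa_mKO replicate 2 it was 0.26 (adjusted p = 0.389). Wipi2, which helps to attach LC3 to lipid, and Gabarap, an LC3 relative, had log2 fold changes of 0.22 and 0.21 (adjusted p = 0.203 and 0.261).

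**Figure D5:**
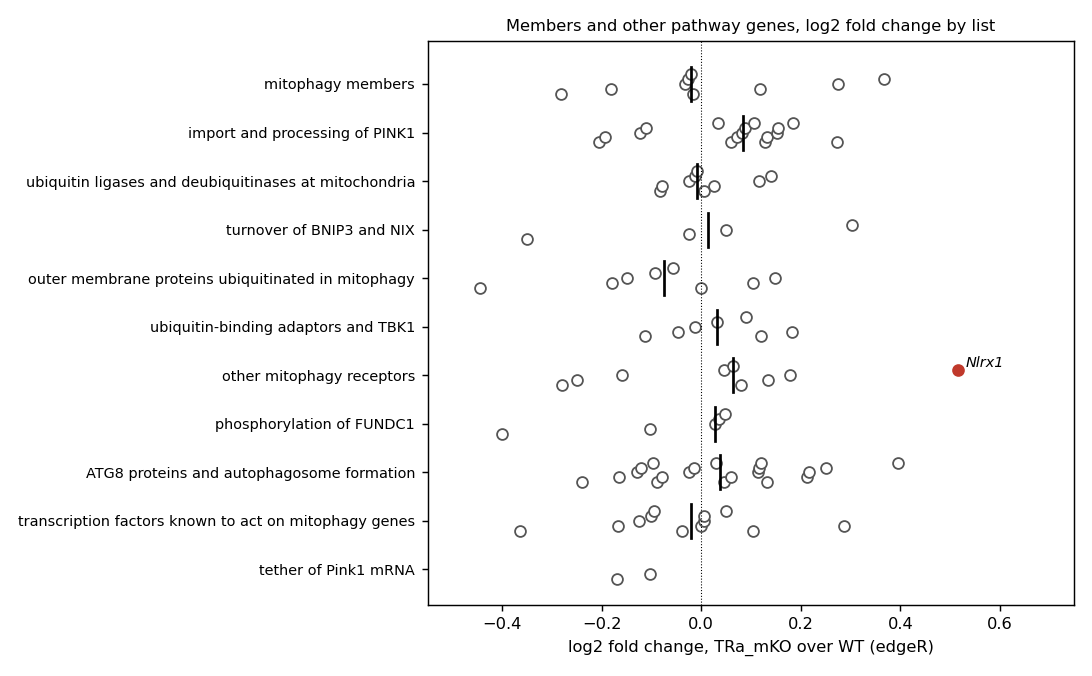
Log2 fold change of TRa_mKO over WT for the members and for the other lists, one circle per gene, filled where the adjusted p is below 0.05, with the median of each list of 3 or more genes as a bar. The values lie between -0.44 and 0.52, list medians between -0.07 and 0.08, and Nlrx1 is the filled circle.

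Of 12 transcription factors and partners known to act on genes of mitophagy, 0 were called, with a median of -0.02. Epas1, hypoxia-inducible factor 2 alpha and abundant in endothelium, measured 289, 323 and 335 CPM in TRa_mKO and 430, 409 and 379 CPM in WT (log2 fold change -0.36, SE 0.10, adjusted p = 0.0904 by edgeR, 0.0140 by DESeq2 and up to 0.238 in its other fits, without the haemoglobin-rich libraries). Its groups did not overlap. The endothelial genes above lay in the same direction with 0 called, and the part of vessel content in the Epas1 values was not tested. Mitf and Keap1 had log2 fold changes of -0.17 and 0.10 (adjusted p = 0.420 and 0.560). Synj2bp and Synj2, an outer-membrane protein and its RNA-binding partner that tether Pink1 mRNA to mitochondria in neurons, measured 73.9 ± 5.79 and 49.3 ± 9.41 CPM in TRa_mKO and 83.1 ± 5.51 and 53.0 ± 6.53 CPM in WT (adjusted p = 0.383 and 0.778). The counts of each were fractional in part, and these values concern the amount of mRNA, not its place in the fibre.

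By profile over the 6 libraries, Pink1 was most like Klf11, Abhd18, Ncam1 and Frmd4b among 7687 other genes averaging 4 or more on the log2 CPM scale. Pearson's r of log2 CPM was 0.992, 0.992, 0.990 and 0.988, given as a description since the points share genotype and the genes were picked for their r. Klf11, a Krüppel-like transcription factor, measured 20.5, 22.8 and 26.0 CPM in TRa_mKO and 13.0, 12.9 and 14.3 CPM in WT (edgeR adjusted p = 0.00517). Abhd18 measured 35.3, 38.7 and 45.9 CPM in TRa_mKO and 23.3, 22.9 and 22.7 CPM in WT (adjusted p = 0.00308). Ncam1, an adhesion molecule of denervated and developing fibres, measured 21.3 ± 1.61 CPM in TRa_mKO and 14.0 ± 0.353 CPM in WT (log2 fold change 0.60, adjusted p = 0.00973; without the haemoglobin-rich libraries 0.52, adjusted p = 0.0851). Frmd4b measured 24.1 ± 1.24 CPM in TRa_mKO and 17.8 ± 0.428 CPM in WT (adjusted p = 0.0268, and 0.0261 to 0.181 over its alternatives). Among the members, r to Pink1 was 0.920 for Bnip3, 0.748 for Bnip3l and -0.949 for Pgam5, and lay between -0.467 and -0.0408 for the others.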

How the data were processed

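Polyadenylated RNA of gastrocnemius from 3 TRa_mKO and 3 WT mice was compared. The authors deposited 1 table of estimated counts per gene without normalization; 9.65% to 10.0% of a library's values were not whole (over 0.001 from a whole number). Tools in the submitters' processing notes are Trimmomatic 0.39, FastQC 0.11.9, MultiQC 1.12 and featureCounts. They also list mm10, GRCm38.p6 and GRCm39 without saying which was used for the counts. The aligner, annotation and strand setting were not given in the sources used here. Genes with any fractional value are said to share reads. All values were rounded. Of 74693 features, 17034 had values, and 0 value columns belonged to no sample.

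After filterByExpr (minimum count 10) and TMM scaling, edgeR 4.0.16 (quasi-likelihood, robust, two-sided; R 4.3.3) compared the genotypes, with Benjamini-Hochberg adjustment over 13118 genes and a threshold of 0.05. Log2 fold changes are TRa_mKO over WT. The fit was tested on simulated counts, where many small changes were missed and false calls exceeded the nominal share. Alternatives used limma 3.58.1, DESeq2 1.42.0, other scalings, filters and thresholds, the replicate number as a block, and left-out libraries or genes. The fit without the haemoglobin-rich libraries left out the library richest in haemoglobin of each genotype, so it rested on fewer libraries. Transcript lengths come from GENCODE M21 (longest coding transcript), promoters from RefSeq GRCm38.p6. Library pairs all differed beyond sampling noise (chi-square per degree of freedom at least 7.77).

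The members and lists were chosen with earlier results of these data known. Named were all members, the called genes of each other list or else up to 3 with the smallest p, the 4 genes most like Pink1, and Thra. One further gene of the other lists was tested with the rest but is not reported here and stands in no count of those lists.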

Additional observations from a re-analysis of the deposited data

How the results depend on the processing

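The count of 0 members called held under 16 of the 18 alternatives, while DESeq2 called 2 and a threshold of 0.1 called 1, Bnip3. Among the 16, the threshold of 0.01 could not call a member that 0.05 had not. The fits with libraries left out rested on fewer libraries, which makes a call harder to reach. Over all genes 547 were called (331 higher, 216 lower; 213 and 255 with library sizes alone), 934 at a threshold of 0.1, 173 at 0.01, and 267 without the haemoglobin-rich libraries; with each library left out in turn the count ran from 209 (without TRa_mKO replicate 2) to 595, with 360 without WT replicate 2 and 309 without WT replicate 3. The 78 genes of the other lists gave 1 call, 2 with DESeq2 or library sizes alone, 3 without a filter or at a threshold of 0.1, and 0 at 0.01 or without the haemoglobin-rich libraries; with each library left out in turn they ranged from 0 (without TRa_mKO replicate 2) to 3 (without TRa_mKO replicate 1).

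Without the haemoglobin-rich libraries the log2 fold change turned round for Optn (0.095), Fbxo7 (0.0073) and Csnk2a2 (-0.032), and with library sizes alone for Cul1 (-0.0011). With each library left out in turn it changed sign for Fundc1 (-0.10 to 0.040), Optn (-0.15 to 0.073), Usp30 (-0.068 to 0.043), Fbxo7 (-0.12 to 0.039), Cul1 (-0.0056 to 0.077), Csnk2a2 (-0.043 to 0.17) and Synj2 (-0.20 to 0.048); the cause was not tested. Pink1 stayed between 0.22 and 0.31, Bnip3 between 0.32 and 0.39 and Pgam5 between -0.34 and -0.23 under every alternative with a fit of its own. Of the 41 genes with alternative fits, 22 had a log2 fold change that moved by over 1.5 times in at least 1 alternative, 17 of them with a library left out, among them Bnip3l (0.068 without TRa_mKO replicate 2, against 0.12); none of the 22 was called in the fit reported. Frmd4b passed in 8 of its 16 alternative fits. With the replicate number as a block, 357 genes, 0 members and 1 of the 78 were called. The deviations of same-numbered libraries correlated at r of -0.176, 0.000306 and -0.00568, against -0.172 to 0.195 for libraries of different number. These values gave no sign of pairing by number, but so few libraries cannot exclude it. With 3 mice per genotype, the members' 95% confidence intervals are up to 1.58-fold wide from end to end.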
